A study of Drosophila melanogaster with 2 samples.

Results

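Binding of the aop-eGFP fusion protein was examined at promoters that serve more than 1 gene, that is, at peaks whose summit lay within 500 bp of an annotated transcription start site (TSS) of at least 2 different genes. Of the 1725 peaks in the list derived from both replicates, 1692 lay on the chromosome arms, and 298 of these (17.6%, 95% interval 15.8 to 19.5) met this rule. All annotated genes other than transposons counted, so a noncoding gene could supply a TSS, and 251 peaks met the rule with protein-coding genes alone. The rule used positions only and no signal. Intervals throughout are exact binomial (Clopper-Pearson) 95% intervals and cover counting error only.

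The data are ChIP-seq of transgenic Drosophila melanogaster embryos aged 0 to 24 h whose aop protein bore a tag of enhanced green fluorescent protein (eGFP), pulled down with an anti-GFP antibody. There were 2 biological replicates of a single group, and no control libraries were analysed here. Chromatin came from whole embryos sonicated to 200 to 800 bp, so a peak averages over all cell types and all stages of embryogenesis, and the protein mapped is the tagged one. The lists hold no read counts, so the depth behind a peak is unknown. With 1 group there was no comparison between conditions and no test was run.

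The aop protein (anterior open, or Yan) is an ETS-domain repressor that recognises sites with a GGAA core and is inactivated downstream of receptor tyrosine kinases. In the compact fly genome many genes stand head to head, with start sites close together and transcription running outward, and the stretch between them serves as the promoter of both. Such divergent pairs are rich in housekeeping genes, whose promoters often hold the DNA replication-related element (DRE), bound by DREF, the overlapping CGATA core bound by the boundary protein BEAF-32, the core promoter element Motif 1, bound by M1BP, or Motif 6.

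The sequences that follow are stretches between the start sites of divergent pairs, printed to show what a shared promoter under a peak looks like. They are read from the Release 6 genome (dm6), 5′ to 3′ on the plus strand, so the minus-strand gene of each pair starts at the left end and the plus-strand gene at the right end. The first 6 are the strongest that are at most 300 bp long, free of annotated exons, and hold a searched site; tzn/CG3698 was added for its ETS sites and Trmt61/RpL34a for its pair of DREs. Capitals mark the DRE (TATCGATA), the E-box CAGCTG, the ETS site in its reverse complement and, in tzn/CG3698, a match to Motif 6 that runs into an ETS site.
Shc/Atat (chr3L:9426759-9427009, + strand): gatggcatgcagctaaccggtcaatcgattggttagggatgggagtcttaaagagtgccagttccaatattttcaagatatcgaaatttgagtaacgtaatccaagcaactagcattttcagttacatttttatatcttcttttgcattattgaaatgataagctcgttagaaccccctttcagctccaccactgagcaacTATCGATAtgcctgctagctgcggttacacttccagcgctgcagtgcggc
CG13390/CG17294 (chr2L:8376798-8377034, + strand): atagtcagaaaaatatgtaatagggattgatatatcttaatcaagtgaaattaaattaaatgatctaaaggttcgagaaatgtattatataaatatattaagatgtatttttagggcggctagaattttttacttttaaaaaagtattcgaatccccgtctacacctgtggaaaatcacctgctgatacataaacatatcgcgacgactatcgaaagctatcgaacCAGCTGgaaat
CG3437/CG3552 (chr3L:9457670-9457911, + strand): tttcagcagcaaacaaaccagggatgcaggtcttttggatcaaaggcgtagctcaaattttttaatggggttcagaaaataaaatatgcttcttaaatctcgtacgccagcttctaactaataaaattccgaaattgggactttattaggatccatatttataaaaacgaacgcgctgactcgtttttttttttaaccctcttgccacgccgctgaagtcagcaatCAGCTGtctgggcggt
CG13775/CG3430 (chr2L:6956951-6957007, + strand): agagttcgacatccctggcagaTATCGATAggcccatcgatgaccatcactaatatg
CG18661/alien (chr2L:8997380-8997604, + strand): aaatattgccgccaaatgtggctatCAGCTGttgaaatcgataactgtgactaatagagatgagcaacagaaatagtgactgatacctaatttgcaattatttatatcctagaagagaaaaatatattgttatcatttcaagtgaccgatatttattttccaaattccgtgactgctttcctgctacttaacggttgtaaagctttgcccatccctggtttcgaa
Lamtor3/fws (chr2L:17481030-17481230, + strand): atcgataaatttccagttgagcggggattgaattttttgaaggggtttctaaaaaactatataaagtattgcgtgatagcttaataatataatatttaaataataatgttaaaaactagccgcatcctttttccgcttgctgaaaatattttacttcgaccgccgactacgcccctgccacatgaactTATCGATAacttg
tzn/CG3698 (chr3L:20798376-20798644, + strand): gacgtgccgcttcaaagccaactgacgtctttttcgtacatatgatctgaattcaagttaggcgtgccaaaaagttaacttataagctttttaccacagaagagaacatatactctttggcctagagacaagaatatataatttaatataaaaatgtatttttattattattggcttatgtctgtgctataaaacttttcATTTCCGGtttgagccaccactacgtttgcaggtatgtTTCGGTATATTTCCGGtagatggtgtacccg
Trmt61/RpL34a (chr3R:26059268-26059495, + strand): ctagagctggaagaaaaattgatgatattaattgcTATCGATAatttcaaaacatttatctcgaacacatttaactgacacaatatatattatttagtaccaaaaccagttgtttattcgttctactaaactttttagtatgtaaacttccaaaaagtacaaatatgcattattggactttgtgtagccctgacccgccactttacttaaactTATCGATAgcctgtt

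The DRE of Shc/Atat lay 56.5 bp from the summit, that of CG13775/CG3430 lay 22.5 bp from it and that of Lamtor3/fws 76.5 bp from it. The E-box of CG13390/CG17294 lay 166.5 bp from the summit, close to one end of the stretch. That of CG3437/CG3552 lay 108.5 bp from the summit and that of CG18661/alien 113.5 bp from it. Each of these E-boxes lay outside its peak and beyond the 100 bp searched on either side of the summit. They are therefore not among the E-box matches counted below. In tzn/CG3698 the ETS sites lay 50.5 and 4.5 bp from the summit. In Trmt61/RpL34a, one DRE lay 1.5 bp from the summit and the other 179.5 bp from it. Arm 2R was left out of these sequences. Of the divergent peaks on the other arms, 104 had such a short exon-free stretch, and 42 of those stretches held a DRE, E-box, ETS, GAGA, Motif 1 or Motif 6 match. Shc encodes an adaptor of receptor tyrosine kinases and Atat an alpha-tubulin acetyltransferase; alien encodes a COP9 signalosome subunit, Lamtor3 a Ragulator subunit, fws a subunit of the Golgi COG complex, and RpL34a a protein of the large ribosomal subunit.

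Most of these peaks sat at head-to-head genes. The start sites nearest the summit belonged to a divergent pair at 237 of 298 peaks (79.5%, 74.5 to 84.0). They belonged to genes on the same strand at 45 (15.1%, 11.2 to 19.7). At 16 (5.37%, 3.10 to 8.57) the genes were on opposite strands with transcription running toward each other. These last pairs are called overlapping here, from the order of their start sites, and the ends of their transcripts were not checked. Among the 3283 candidates of the ranked list that fell at shared promoters and overlapped no listed peak, 62.7% (61.1 to 64.4) were divergent, 27.2% were same-strand and 329 were overlapping. The intervals of the divergent share did not overlap. Both nearest genes were protein-coding at 245 peaks (82.2%, 77.4 to 86.4). The 298 peaks covered 286 distinct nearest pairs and 604 genes, with 12 pairs at 2 peaks each.

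At same-strand pairs the shared promoter was usually a shared start site. The 2 start sites coincided at 27 of 45 such peaks (60.0%, 44.3 to 74.3). Short gaps are common among same-strand candidates as well. Over these 894 the gap had a lower quartile of 0 bp and a median of 33 bp. Dicistronic genes, which share 1 transcript, are annotated in this way. A noncoding RNA gene belonged to the nearest pair at 14 of the 45 and a small nucleolar RNA gene at 3. Noncoding RNA genes were in the nearest pair of 8 of the 16 overlapping pairs and of 15 of the 237 divergent ones. Both nearest genes were protein-coding at 25 of the 45 same-strand peaks (55.6%, 40.0 to 70.4), against 213 of the 237 divergent ones (89.9%, 85.3 to 93.4). The annotation has such a difference itself: 800 of its 3856 same-strand close pairs and 2615 of its 3350 divergent ones were both protein-coding.

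Several peaks served more than 2 genes. Start sites of 3 genes lay within 500 bp of 23 summits, those of 4 genes at 3 summits and those of 5 genes at 1. The 5 genes were PIG-M, an enzyme of GPI anchor synthesis, CG42379, CG42380 and CG42381, and NC2alpha, a subunit of the transcription repressor NC2 (chr2R:21669899-21670154). Its signal was 90.0 in the list from both replicates, 35.9 in replicate 1 and 52.0 in replicate 2. A peak with 4 genes lay at tal (tarsal-less), a polycistronic locus whose small peptides act in embryonic and leg development, and where tal-1A, tal-2A, tal-3A and tal-AA are annotated as separate genes (chr3R:13812915-13813170). Its signal was 53.2 in the list from both replicates, 21.5 in replicate 1 and 30.7 in replicate 2. Another lay at COX6B, a cytochrome c oxidase subunit, with CG18809, CG33932 and Rpp20, a subunit of RNase P, and the last lay at mir-375 with noncoding neighbours.

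The limit of 500 bp divided a continuous range of distances. The 3 members nearest to it were RtGEF/La, whose more distant start site lay 500 bp from the summit (signal 50.9), tank/CG12194 at 492 bp (signal 202.9) and CG43102/pasi1 at 492 bp (signal 45.5). Just outside it were capt/Tango14 at 501 bp (signal 47.1), CG9921/Dsp1 at 501 bp (signal 61.3) and a pair of long noncoding RNAs at 502 bp (signal 76.8). The signals inside ran from 45.5 to 202.9 and overlapped those outside.

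Strength is given as the signal value that the authors deposited for each peak, whose scaling is not stated. Its median over the 298 peaks was 65.9 (quartiles 55.2 and 98.6, range 2.08 to 500.2). The 585 peaks at the promoter of a single gene had a median of 65.8 and the 809 away from any TSS 63.3, so the 3 medians lay close together. The strongest peaks of the list were elsewhere: the maximum was 696 at single-gene promoters and 1468.5 away from start sites. Of the list's 20 strongest peaks 5 were at shared promoters, and of its 100 strongest 28 were. Over all 1692 peaks on the arms the share was 17.6%. By arrangement the median signal was 67.0 for divergent, 63.2 for same-strand and 63.2 for overlapping pairs, with overlapping quartile ranges.

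The strongest shared promoter was that of CG7601 and CIA30, an assembly factor of respiratory complex I (chr3R:29736773-29736943). Its signal was 500.2 in the list from both replicates, 185 in replicate 1 and 325 in replicate 2. The start sites stood 220 bp apart, with the summit 102 bp upstream of one and 118 bp upstream of the other, so it lay close to the middle of the gap. Next came mRpL41, a protein of the mitochondrial ribosome, with a long noncoding RNA gene on the same strand (chr2R:15217649-15217843), with signals of 469, 199.9 and 274 in the same order. Its summit lay 126 bp upstream of the mRpL41 start.

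Tcs5, which acts in tRNA modification, and CHMP2B, an ESCRT-III subunit (chr3L:5139416-5139583), gave signals of 436 in the list from both replicates, 173 in replicate 1 and 265 in replicate 2. CenG1A, an Arf GTPase-activating protein, and mRpS23, a protein of the mitochondrial ribosome (chr2L:13835374-13835546), gave 429, 173 and 256. The eIF6 promoter, with an antisense RNA gene starting 29 bp away, gave 381, 159.7 and 219; eIF6 acts in the making of the large ribosomal subunit (chr2R:23850332-23850493). Replicate 2 had the higher value at all 5 of these promoters, and both replicates' own lists held each of them.

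The pairs from rank 6 to rank 20 had signals from 307 down to 216 in the list from both replicates. Among their genes were Mnat9, a microtubule-associated protein of the N-acetyltransferase family, mRpS10 and mRpL23 of the mitochondrial ribosome, RpS29 of the cytoplasmic ribosome, Elp5 of Elongator, Ssl1 of the general transcription factor TFIIH, Chro, an interband chromatin protein, PAN3 of a deadenylase complex, Uck, a uridine-cytidine kinase, Atg4b, an autophagy protease, and Pex11ab of peroxisome division. Among the 20 strongest, 17 were divergent, 11 of those had the summit between the start sites, 4 held a DRE and 3 held an ETS site. All 20 stood in both replicates' own lists.

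**Figure D1:**
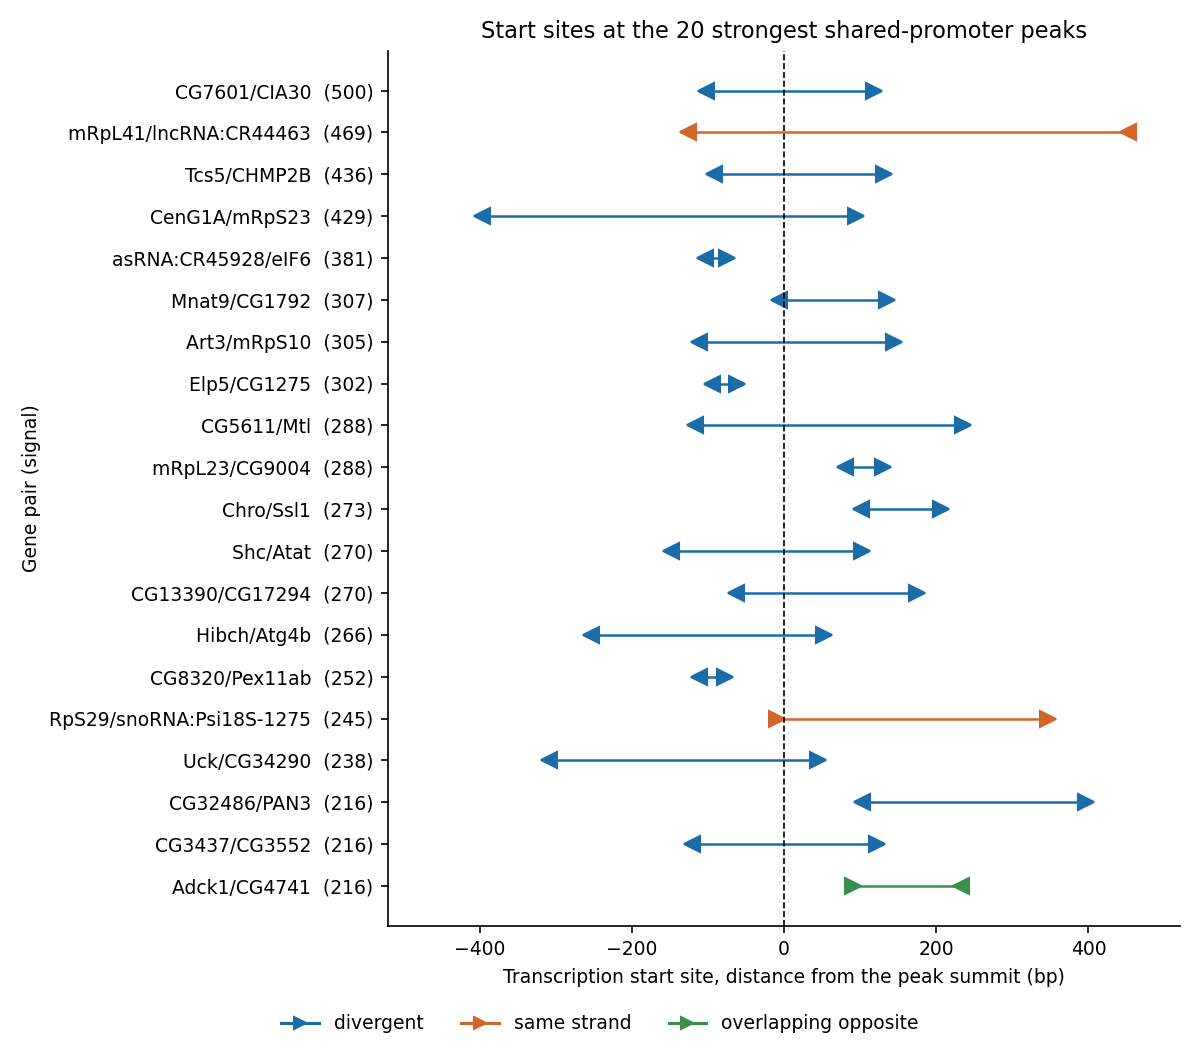
Position of the 2 nearest start sites (arrowheads pointing in the direction of transcription) relative to the peak summit (dashed line at 0 bp) at the 20 strongest shared-promoter peaks, ordered by signal, which stands in parentheses. In 17 of the 20 the arrowheads point away from each other, and the nearest start site stands within 130 bp of the summit in every row.

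The 5 strongest divergent pairs were among those above. The 5 strongest same-strand peaks were at mRpL41, at RpS29 with a small nucleolar RNA gene (signal 244.6), at Sesn/CG46429 (190.5), at CG8788/CG44286 (187.9) and at elav with the noncoding RNA enrr (150.7). Sesn encodes sestrin, a stress-response regulator of TOR, and elav a neuronal RNA-binding protein. At the last 3 of these the 2 start sites coincided. Overlapping pairs were led by Adck1/CG4741 (215.8), CG31808/Cyt-c-d (138.3), asRNA:CR46105/Moca-cyp (82.9), CG3625/asRNA:CR46263 (77.5) and CG4658/CG5846 (68.1); Adck1 is related to mitochondrial kinases of the ADCK family and Cyt-c-d is a cytochrome c.

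Both replicates gave a candidate at 294 of the 298 peaks. The median signal was 28.9 in replicate 1 (quartiles 21.5 and 42.9, n = 295 peaks) and 40.0 in replicate 2 (33.8 and 60.9, 297 peaks). Replicate 2 was the higher in 256 of the 294, but how each list's signal was scaled is not stated, so the difference in level cannot be told apart from scaling or depth. Signals in the replicates had a Spearman rho of 0.574 across the 294 peaks, given as a description because these peaks were selected using both replicates. The value of a replicate is that of its strongest candidate overlapping the peak, and 17 members overlap another listed peak, so that such a value can belong to the neighbour. Over the 281 members that overlap no other listed peak, the medians were 29.1 and 40.7 and replicate 2 was the higher in 239 of 277.

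Each replicate's own list is shorter than the list from both. The list of replicate 1 (628 peaks in all) held 123 of the 298 (41.3%, 35.6 to 47.1), and that of replicate 2 (1142 peaks) held 186 (62.4%, 56.6 to 67.9). Both held 95 (31.9%), at least 1 held 214 (71.8%, 66.3 to 76.8) and neither held 84 (28.2%). For single-gene promoter peaks the shares were 30.6% in both lists and 31.6% in neither. Strength went with presence in the replicates' lists: of the 100 strongest members 87 were in both lists, against 6 of the next 99 and 2 of the 99 weakest. The signal used for this ranking comes from the list made from both replicates, so the 2 measures are not independent. The conservative list of the authors held 246 of the 298 (82.6%, 77.8 to 86.7).

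**Figure D2:**
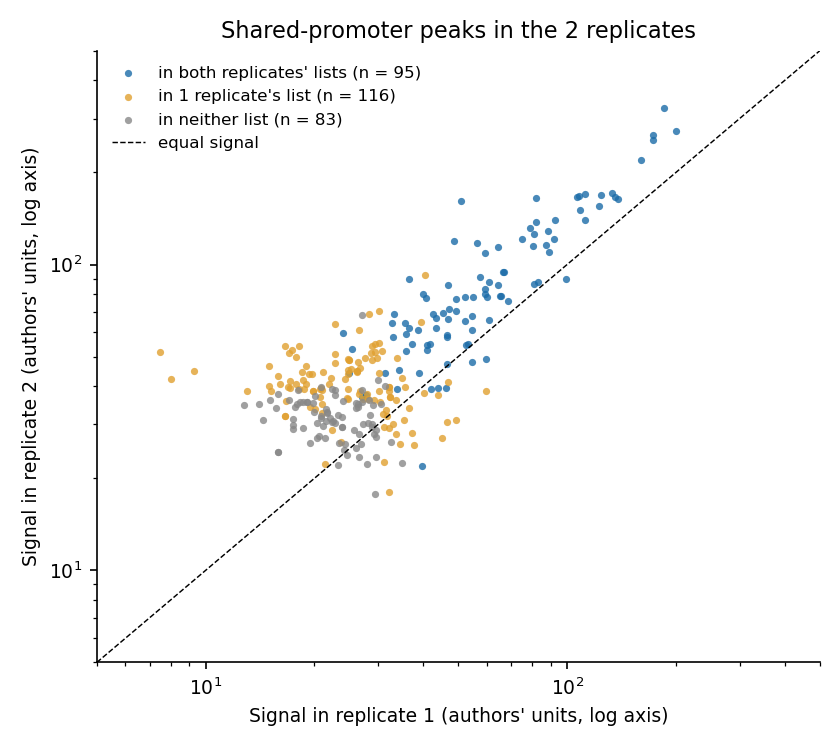
Signal of each shared-promoter peak in replicate 1 (horizontal) and replicate 2 (vertical), in the authors' units on log axes, for the 294 peaks with a candidate in both, coloured by presence in the replicates' own lists. Points of peaks in both lists lie at higher signal, and 256 of the 294 lie above the dashed line of equal signal. The points include the 17 members that overlap another listed peak, whose replicate value can belong to that neighbour.

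The reverse count starts from the annotation: how often a pair with start sites at most 1000 bp apart held a peak, with a summit within 500 bp of both. Of 7726 such pairs, 356 did (4.61%). A peak near the start sites of several genes counted for several pairs, so the 356 pairs stand against 298 peaks. The intervals here and for the gap classes below treat pairs as independent. They may be too narrow where pairs share a peak. Among pairs of protein-coding genes, 8.72% of 2615 divergent pairs did (7.67 to 9.87), against 4.38% of 800 same-strand pairs (3.07 to 6.03) and 10.5% of 105 overlapping pairs (5.35 to 18.0). Of all candidates on the arms, 1.18% overlapped a listed peak. The share was 8.48% for candidates at shared promoters and 3.21% for candidates at single-gene promoters. All 35 same-strand pairs of protein-coding genes with a peak had start sites less than 100 bp apart. In that class 9.46% of 370 pairs held a peak. None of the 397 same-strand pairs at 500 to 1000 bp did, which allows a share of up to 0.925% by the exact interval. A polycistronic locus such as tal can supply several of the 35 pairs. Both nearest genes were protein-coding at 25 same-strand peaks. How far such loci set the same-strand share was not tested.

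Among divergent pairs of protein-coding genes, those with start sites 200 to 299 bp apart held a peak most often. Of these, 93 of 531 did (17.5%, 14.4 to 21.0). The share was 10.3% (7.56 to 13.6) at 0 to 99 bp, 5.43% (3.30 to 8.35) at 100 to 199 bp, 9.05% (6.96 to 11.5) at 300 to 499 bp and 2.11% (1.16 to 3.51) at 500 to 1000 bp. The interval at 200 to 299 bp lay above those of the other 4 classes. With noncoding genes included, the share at 200 to 299 bp was 14.5% of 647 pairs (11.9 to 17.5), and its interval overlapped that at 0 to 99 bp, 10.3% of 495 (7.77 to 13.3). A wide gap gives a summit less room to lie within 500 bp of both start sites, which lowers the share in the widest class by the rule itself. Pairs at 200 to 299 bp made up 35.4% of the divergent members (29.4 to 41.9) and 477 of the 2060 divergent candidates (23.2%).

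**Figure D3:**
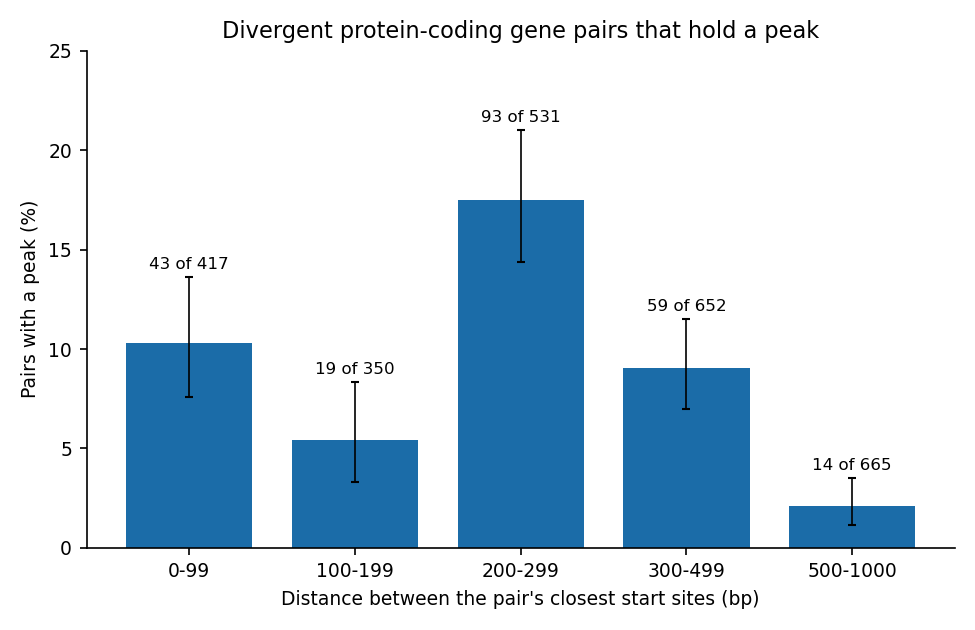
Share of divergent pairs of protein-coding genes that hold a peak (vertical, %) by the distance between their closest start sites (horizontal, bp), with exact 95% intervals and counts above the bars. The class of 200 to 299 bp reaches 17.5% and stands above the other 4 classes, which lie between 2.11% and 10.3%. Pairs that share a peak are counted separately.

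At most divergent pairs the summit lay in the gap between the genes. There the summit was between the start sites at 186 of 237 peaks (78.5%, 72.7 to 83.5), against 900 of 2060 candidates (43.7%, 41.5 to 45.9). With a gap of 200 to 299 bp it was between them at 76 of 84 peaks (90.5%) against 43.4% of candidates, and with 300 to 499 bp at 65 of 72 (90.3%) against 59.0%. At gaps under 100 bp, where there is little room, it was between them at 7 of 34 peaks (20.6%) against 17.4%. Above 500 bp every summit within reach of both start sites is between them by construction. Of the 51 divergent summits outside the gap, 36 were at gaps under 200 bp.

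Over all divergent pairs, summits also lay nearer to the midpoint of the gap than those of candidates. The median distance to it was 82.0 bp over the 237 divergent peaks and 166.5 bp over the candidates. At gaps of 200 to 299 bp the medians were 61.5 and 148 bp, while at 500 to 1000 bp the order was the opposite, with 114.75 bp for 24 peaks and 96.25 bp for 172 candidates. Peaks and candidates differ in signal as well, with medians of 65.9 and 19.1 for all shared-promoter peaks and candidates, and how far signal sets the precision of a summit was not tested. Leaving out the 75 candidates that lay at the gene pair of a member gave 43.8% of divergent candidates between the start sites.

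**Figure D4:**
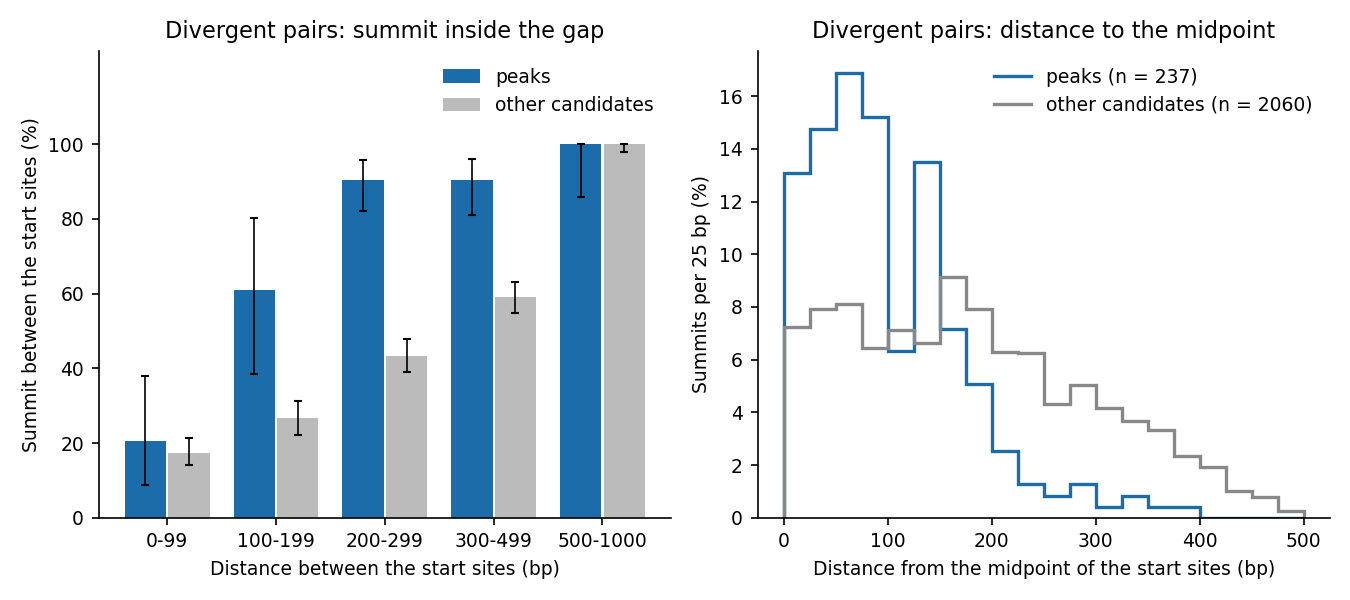
Left, share of divergent peaks (blue) and other divergent candidates (grey) whose summit lies between the start sites, by the distance between these, with exact 95% intervals. Right, distance of the summit from the midpoint of the start sites in bins of 25 bp; the peaks are concentrated at short distances, with a median of 82.0 bp against 166.5 bp.

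Over all arrangements, the summit lay upstream of its nearest TSS at 228 of 298 peaks (76.5%, 71.3 to 81.2), against 45.2% of candidates. At single-gene promoter peaks the share was 71.3% (67.4 to 74.9), an overlapping interval. It lay within 100 bp upstream of that TSS at 148 (49.7%, 43.8 to 55.5), against 26.2% of candidates and 25.8% of single-gene promoter peaks (22.3 to 29.6). The median distance to the nearest TSS was 71.0 bp for members, 110 bp for candidates and 134 bp for single-gene promoter peaks. More start sites nearby shorten this distance by themselves, so the comparison with candidates of the same class is the closer one.

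The DNA under these peaks was poor in G and C. In the 201 bp around the summit the median GC content was 37.8% (quartiles 33.3 and 43.7), against 42.8% at single-gene promoter peaks and 44.8% at the candidates of the class. Motifs were counted in the same window on both strands. At annotated gene starts the window of 201 bp was centred on the start site, since there is no summit. Shares at gene starts are thus measured at another position than those at summits, and how far this matters was not tested. A match is a string of letters and does not show that the factor is bound, and the part of GC content in the motif shares was not tested.

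The DRE, the BEAF-32 core and Motif 6 were more frequent at shared-promoter peaks than at single-gene ones, with intervals that did not overlap, while Motif 1 was not. The contrast was not particular to listed peaks. Candidates at shared promoters held the DRE at 4.72%, against 1.11% of candidates at single-gene promoters. For the BEAF-32 core these shares were 31.3% and 23.8%, for Motif 6 1.01% and 0.179%, and for Motif 1 2.47% and 0.597%. Against annotated gene starts with another gene's TSS within 1000 bp, however, in windows centred on the start site, none of the 4 shares stood apart. These starts held the DRE at 8.29% (7.73 to 8.87) and the BEAF-32 core at 40.6% (39.6 to 41.6). They held Motif 6 at 1.76% (upper bound 2.05) and Motif 1 at 4.04% (3.64 to 4.46). Each interval overlapped that of the peaks, whose windows are centred on the summit instead. The DRE, TATCGATA, was found at 31 of 298 peaks (10.4%, 7.18 to 14.4), against 3.42% of single-gene promoter peaks (2.10 to 5.23), 4.72% of candidates of the class (4.02 to 5.50) and 6.20% of all annotated gene starts. Of these 31 peaks, 26 were divergent, and among divergent pairs alone the shares were 11.0% (7.29 to 15.7) for peaks and 6.89% (5.84 to 8.07) for candidates, whose intervals overlapped. The BEAF-32 core CGATA, which every DRE contains, was found at 118 peaks (39.6%, 34.0 to 45.4), against 29.9% of single-gene promoter peaks, 31.3% of candidates and 35.7% of gene starts. Without a DRE, 87 of 267 peaks (32.6%) still held CGATA.

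The E-box CAGCTG was found at 55 peaks (18.5%, 14.2 to 23.3), against 11.6% of single-gene promoter peaks (9.14 to 14.5), 13.3% of candidates (12.1 to 14.5), 12.3% of gene starts and 13.8% of those with a close partner (13.1 to 14.6). Its interval overlapped those of single-gene promoter peaks, candidates and starts with a close partner. It was at 26 of the 100 strongest members, 16 of the next 99 and 13 of the 99 weakest, and the median signal was 79.0 with it and 64.3 without. The intervals of the 3 strength classes overlapped. Motif 6 was at 8 peaks (2.68%, 1.17 to 5.22), against 0.171% of single-gene promoter peaks (0.00433 to 0.949), 1.01% of candidates and 1.35% of gene starts. Motif 1 was at 9 peaks (3.02%, 1.39 to 5.66), within the intervals of single-gene promoter peaks (1.71%), and near the 2.47% of candidates and the 3.08% of gene starts.

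GAGA sites were rarer at shared-promoter peaks than at single-gene promoter peaks. The string GAGAGAG was at 8 peaks (2.68%, 1.17 to 5.22), the same share as among candidates of the class (2.68%), and at 14.2% of single-gene promoter peaks (11.5 to 17.3), against 3.67% of gene starts and 2.93% of those with a close partner. Among the other candidates the difference was smaller, with 2.68% at shared and 4.22% at single-gene promoters. GAGA sites are bound by the GAGA factor, which keeps promoters of developmental genes open. The TATA box, searched as STATAWAAR (S is C or G, W is A or T, R is A or G), was at 3.36% of peaks. It was at 3.25% of single-gene promoter peaks and 2.99% of candidates of the class. In windows centred on the start site it was at 6.88% of gene starts and 5.37% of those with a close partner. The Zelda site CAGGTAG was at 0.671% of peaks, 1.03% of single-gene promoter peaks, 1.46% of candidates and 0.968% of gene starts. The CTCF core AGRKGGCGC (K is G or T) was at 1.01%, 1.88%, 0.853% and 0.492% in the same order.

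**Figure D5:**
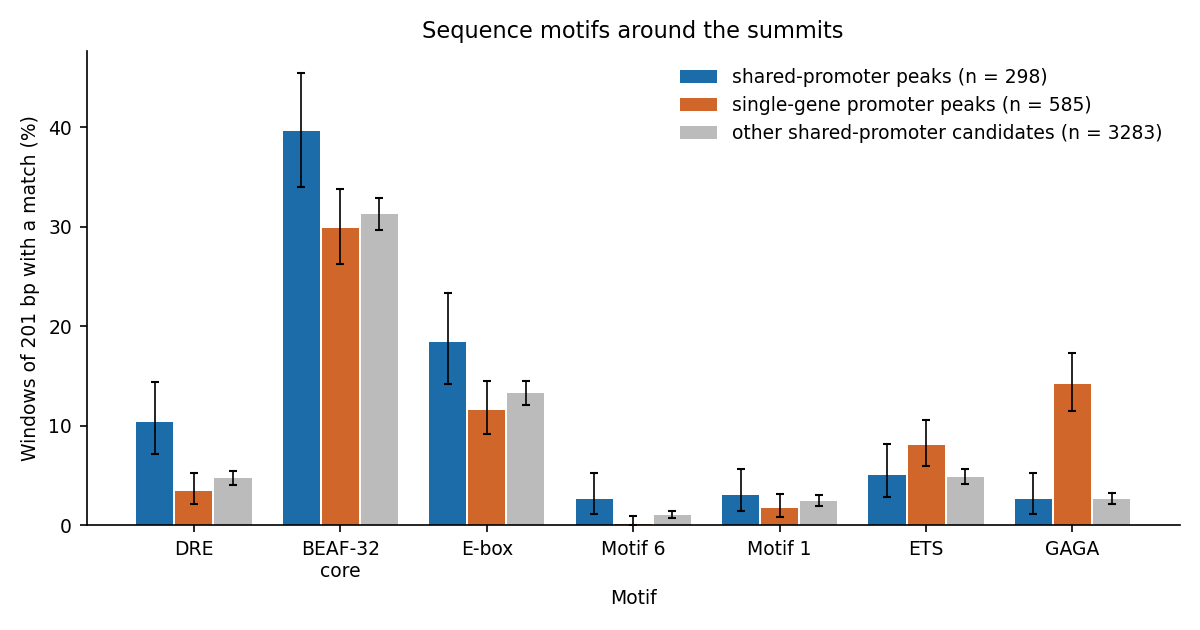
Share of 201 bp windows around summits that hold each motif (vertical, %), for shared-promoter peaks (blue), single-gene promoter peaks (orange) and the other shared-promoter candidates (grey), with exact 95% intervals. The DRE stands at 10.4% against 3.42% at single-gene promoter peaks, and GAGA at 2.68% against 14.2%.

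Few of these peaks held the site of aop's own family, and their share was close to that of candidates of the class. The ETS site, searched as MCGGAARY (M is A or C, Y is C or T), was at 15 of 298 peaks (5.03%, 2.84 to 8.17), against 8.03% of single-gene promoter peaks (5.96 to 10.5), 4.90% of candidates of the class (4.19 to 5.70), 3.71% of gene starts and 3.80% of those with a close partner (3.41 to 4.21). The interval of the peaks overlapped those of single-gene promoter peaks, candidates and starts with a close partner. At peaks away from any TSS the share was 7.79% (6.04 to 9.85), also an overlapping interval. On the arms from which sequence was printed, the 3 strongest peaks with the form CCGGAAGT are shown with 11 bases on either side, on the strand that carries the site in capitals.
Hibch/Atg4b (chr3R:15357167-15357196, - strand): ccgcacacatgCCGGAAGTaaataagggtg
Uck/CG34290 (chr3R:24290104-24290133, - strand): ccacggttactCCGGAAGTaaagcgttgcc
T48/ro (chr3R:26881421-26881450, - strand): tgaaactttggCCGGAAGTaaaattagggg

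The site lay 4.5 bp from the summit at Hibch/Atg4b, 8.5 bp from it at Uck/CG34290 and 67.5 bp from it at T48/ro. Hibch, an enzyme of valine breakdown, and Atg4b gave signals of 266 in the list from both replicates, 108 in replicate 1 and 151 in replicate 2. T48 encodes a membrane protein that acts in apical constriction of the mesoderm at gastrulation, and ro (rough) a homeodomain protein of the eye; their peak (chr3R:26881375-26881630) gave 163.5, 66.7 and 94.7. Another ETS match, ACGGAAAT, lay 92.5 bp from the summit of Chro/Ssl1, whose signals were 273, 107.9 and 168. The stricter ACCGGAAGT, which contains CCGGAAGT, was at 1 peak, CG16787/alpha-Catr on arm 2R (chr2R:23957416-23957486), with signals of 173, 59.3 and 109. The remaining ETS matches off arm 2R were at elav, RpL7/Ripalpha, sau/CG15387, tzn/CG3698, CG9205/trio, Cerk, CG13994/ND-51, CG42353/CG42354 and CG7110/CG10859.

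Families of housekeeping genes were counted among genes that have another gene's TSS within 1000 bp, since no other gene can meet the rule. Of all 6728 such protein-coding genes, 529 were at a member (7.86%, 7.23 to 8.53). For cytoplasmic ribosomal proteins it was 13 of 72 (18.1%, 9.98 to 28.9), and for mitochondrial ribosomal proteins 9 of 60 (15.0%, 7.10 to 26.6). The interval of the cytoplasmic ribosomal proteins lay above the share of all such genes, and that of the mitochondrial ones reached down to it. At promoters of any kind, 20 of 93 cytoplasmic and 9 of 73 mitochondrial ones had a peak, against 1010 of all 13968 protein-coding genes. The high cytoplasmic share is thus not particular to shared promoters. At RpS29, RpS6, RpS27 and RpS12 the other gene of the nearest pair was a noncoding RNA gene or a pseudogene. The 4 strongest cytoplasmic ones were RpS29 (signal 244.6), RpS6 (123.7), RpL32 (121.5) and RpL7 (115), and the 4 strongest mitochondrial ones were mRpL41, mRpS23, mRpS10 and mRpL23 (469 down to 288).

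For the other families the interval included the share of all such genes. Respiratory complex and ATP synthase subunits had 7 of 57 (12.3%, 5.08 to 23.7), led by COX5A (69.7), ND-ASHI (67.2), COX6B (64.8) and ND-24 (58.5). Translation initiation factors had 3 of 24, with eIF6 (381), eIF1 (60.4) and eIF3h (60.1). Aminoacyl-tRNA synthetases had 3 of 26, with GluProRS (90.3), ThrRS (66.3) and SerRS (52.9). RNA polymerase subunits, general transcription factors and Mediator had 4 of 57, with MED27 (99.6), MED30 (97.9), MED4 (59.7) and Polr2H (48.7). Proteasome subunits had 2 of 26, Rpn3 and Prosbeta2, and DNA replication factors 0 of 11 (up to 28.5% by the exact interval).

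Few genes of aop's own pathway stand at shared promoters. Of 53 genes of receptor tyrosine kinase, Ras and MAPK signalling, 11 had a peak at a promoter of any kind, but only 18 had a close partner, and 1 of those, Shc, was at a shared-promoter peak (5.56%, 0.141 to 27.3, an interval that includes the 7.86% of all such genes). Its signal was 270 in the list from both replicates, 106.7 in replicate 1 and 166 in replicate 2 (chr3L:9426808-9426950). Of 18 reported aop targets, 8 had a promoter peak, 5 had a close partner and none was at a member. For comparison with both lists, 1010 of all 13968 protein-coding genes had a promoter peak and 6728 had a close partner. Among noncoding genes with a close partner, 16 of 221 tRNA genes (7.24%), 7 of 228 small nucleolar RNA genes (3.07%) and 48 of 1836 other noncoding RNA genes (2.61%) were at members. Copies of a tRNA gene are near-identical, so reads at them may not be placed with certainty.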

How the data were processed

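The deposited peak lists are ChIP-seq of aop-eGFP embryos in 2 biological replicates, on dm6 per the file headers and labels. The authors ranked peaks by the irreproducible discovery rate (IDR). Which aligner and peak caller they used is not given in the sources used here. Signal of a peak is the value deposited by the authors, with unstated scaling, and the score is the deposited IDR rank score (830 to 1000 in the list from both replicates). The lists give no depth.

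Peaks on 7 arms (1692 of 1725) were used, and 33 elsewhere were left out. Start sites came from Ensembl release 115 (18277 genes without transposons) and sequence from Release 6. The summit's nearest start site of each gene within 500 bp was taken, and the 2 nearest genes formed the pair. Other candidates were those of the ranked list (147076, of which 145057 on the arms) overlapping no listed peak by 1 bp or more. A replicate's value is that of its own strongest overlapping candidate. In all 11 motifs were searched within 100 bp of the summit on both strands, and 10 gene lists were counted, of which 2 symbols matched no gene. Counting steps were tested on simulated data. No test was run, since there is 1 group and peaks are not replicates. The members, lists and motifs were chosen with earlier results of these data known. Named genes are the 20 strongest members, the 5 strongest of each arrangement, those in the lists (the 4 strongest of each), those with an ETS site, those with most genes and 3 on each side of the limit. Python 3.11.15, pandas 2.3.3, numpy 2.4.6, scipy 1.17.1 and matplotlib 3.10.9 were used.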

Additional observations from a re-analysis of the deposited data

How the results depend on the processing

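Each of the 10 main results was recomputed with other settings, and 2 background shares were recomputed without candidates at a member's gene pair. The share found in a replicate's own list was also recomputed without members that overlap another listed peak (71.9% against 71.8%). Both choices were made after seeing the data. Of 85 values, 58 stayed within the interval of the reported value (for the median signal, an interval from the ranked values; for the number of peaks, within 1.5 times it), and 27 did not. Fewer or more peaks follow from the alternative itself; other causes were not tested. A window of 250 bp gave 170 peaks, a median signal of 72.3 and 4.05% of close pairs with a peak, and 1000 bp gave 448 peaks. The stronger peaks by signal (the upper 846) gave 157 members, a median of 96.7, 2.39% of close pairs and Motif 1 at 1.27%. The conservative list gave Motif 1 at 1.11%. With protein-coding genes only, 86.5% of members were divergent and 7.78% of close pairs held a peak. Within 50 bp of the summit the ETS site was at 1.68%, the DRE at 4.70%, GAGA at 0.671% and Motif 1 at 1.34%; within 250 bp they were at 9.40%, 16.4%, 8.39% and 7.38%. No paired analysis was possible because there is 1 group.

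With only 1 replicate's own list (without replicate 1 or without replicate 2), members numbered 129 to 203, divergent pairs were 79.8% to 84.5%, summits between the start sites 72.5% to 79.6%, the median signal 46.6 to 50.9, the DRE 6.98% to 9.36% and close pairs with a peak 2.03% to 3.25%. The lower number of members, DRE share and share of close pairs came from replicate 1's list alone, where 9 of 129 members held a DRE. Low depth cannot be told apart from absence of binding, because the lists hold no counts.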

Other observations

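The 529 protein-coding genes at members had a median span of 2451 bp (quartiles 1448 and 4683), close to the 2224.5 bp of all 6728 protein-coding genes with a close partner. The 493 protein-coding genes at single-gene promoter peaks had a median span of 7126 bp (2927 and 18458).

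Peaks at shared promoters lay on all major arms. On 3R there were 85 (28.5%), on 2L 64 (21.5%), on 3L 62 (20.8%), on 2R 55 (18.5%) and on X 32 (10.7%, 7.46 to 14.8). Among the other candidates of the class, X held 15.6% (14.4 to 16.9). No member was on arm 4 or Y, which held 3 and 0 of the 3283 candidates.

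In the list from both replicates, 8 members had a signal under 20, the highest of them 14.5. All 8 overlapped another peak of that list, so no replicate value is given for them.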
